A study of Mus musculus with 8 samples.

Results

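The replication-dependent histone genes were followed in cultured mouse pre-B cells that carried a ZNF384 fusion, full-length ZNF384 or an empty vector. The genes were taken by symbol, as every row of the gene count table whose name begins with Hist1h, Hist2h, Hist3h or Hist4h, which gave 69 of 32499 genes. They comprise 6 linker histone (H1), 19 H2A, 19 H2B, 12 H3 and 13 H4 genes. By cluster, 55 belong to Hist1 on chromosome 13, 10 to Hist2 on chromosome 3, 3 to Hist3 on chromosome 11 and 1 to Hist4 on chromosome 6. Hist3h2bb-ps and Hist2h3c2 are annotated as pseudogenes. After a filter on low counts 66 were tested among 12970 genes. The other 3 were Hist1h1t with 11 counts over all libraries, Hist2h2aa1 with 13 and Hist2h3c1 with 0.

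The cells were pre-B cells from C57BL/6 bone marrow lacking Arf, and all groups share that genotype. Lentivirus delivered HA-tagged full-length ZNF384, TAF15-ZNF384 or TCF3-ZNF384, the control group carried an empty vector, GFP-positive cells were sorted, and each of the 4 groups has 2 libraries made from total RNA. The promoter that drives the constructs is not given in the sources used here. ZNF384 is a zinc finger transcription factor, and its fusions to TAF15 or TCF3 (E2A) occur in acute leukaemia.

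Replication-dependent histones package newly made DNA, and their genes are active mainly in S phase. Their messenger RNAs are the animal messages that normally lack a poly(A) tail: they end just after a short stem-loop that is bound by stem-loop binding protein (Slbp) and cut with the U7 particle. Their transcription is tied to cyclin E and Cdk2 through the coactivator Npat. A library prepared from total RNA can hold such messages, while selection for poly(A) would remove most of them. Replication-independent variants such as H3f3a come from separate, polyadenylated genes.

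The stem-loop is shown because it is the feature that defines this family. A 16-base match to the consensus lay within 200 bases after the stop codon in 64 of the 69 genes, against 5 of 22689 other coding genes (0.022%). For the pseudogenes Hist3h2bb-ps, counted among the 64, and Hist2h3c2, which have no coding sequence, the window began at the annotated gene end. One form, that of Hist1h1a, was carried by 40 genes. A form with a different last base of the loop, as in Hist1h2bb, was carried by 9, and a form with a different stem, as in Hist1h4h, by 8 H4 genes. The remaining 5 forms were in Hist1h4b and Hist1h4j, in Hist1h4i and Hist2h4, and in Hist1h4a, Hist1h3g and Hist2h2ac. No match was found in that window for Hist1h2al, Hist1h2an, Hist2h2bb, Hist2h2be and Hist2h3c2, and the last was not searched within the annotated gene. The sequences are read 5′ to 3′ in the sense of the gene from the mm9 genome, with the stem-loop in capitals and 5 flanking bases on each side in lower case. Their positions are chr13:23856256-23856281 for Hist1h1a, chr13:23839067-23839092 for Hist1h2bb, chr13:23623322-23623347 for Hist1h4h and chr13:23849230-23849255 for Hist1h4b, all on the plus strand. The minus strand carries Hist2h4, at chr3:96066857-96066882, and Hist1h4a, at chr13:23852664-23852689.
Hist1h1a: ccaacGGCTCTTTTCAGAGCCaccaa
Hist1h2bb: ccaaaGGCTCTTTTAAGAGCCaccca
Hist1h4h: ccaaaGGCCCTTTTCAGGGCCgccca
Hist1h4b: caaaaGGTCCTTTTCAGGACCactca
Hist2h4: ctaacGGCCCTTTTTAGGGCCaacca
Hist1h4a: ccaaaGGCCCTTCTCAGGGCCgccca

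Libraries held 9381954 to 41483660 assigned counts, and histone genes took 5.41 to 8.26% of them. A set of 5 abundant non-coding genes took 10.9 to 33.2%, with the lowest shares in the full-length ZNF384 libraries. Reads assigned to mouse Zfp384 were 51.1 and 90.2 CPM with full-length ZNF384, 185 and 162 CPM with TAF15-ZNF384, 511 and 450 CPM with TCF3-ZNF384, and 24 and 21.6 CPM with the empty vector, so each construct's libraries lay above the empty vector. The level of a construct and its identity cannot be told apart. CPM here is edgeR's count relative to library size after TMM scaling, and a log2 fold change is given with its standard error. Summed pre-B cell markers (8 of 8 detected, among them Cd79a, Pax5 and Igll1) were 4118 to 4594 CPM in every library. Summed markers of T cells (3 genes), myeloid cells (4) and stromal cells (3) stayed at or below 1.29 CPM, and the erythroid sum (3 genes) at or below 4.02 CPM, nearly all of it Klf1.

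Histone transcripts were lowest with TCF3-ZNF384. Summed over the 69 genes, the level was 77349 and 68885 CPM with full-length ZNF384, 72027 and 80846 CPM with TAF15-ZNF384, 47726 and 52974 CPM with TCF3-ZNF384, and 91941 and 90315 CPM with the empty vector. The TCF3-ZNF384 libraries lay below the other 6, and the empty vector libraries above the other 6. As a share of all assigned counts, with no TMM scaling, histone genes took 8.13 and 7.77% in the full-length ZNF384 libraries, 7.06 and 7.67% in the TAF15-ZNF384 libraries, 5.41 and 5.50% in the TCF3-ZNF384 libraries, and 8.26 and 7.70% in the empty vector libraries, so on that scale TCF3-ZNF384 was again lowest while the empty vector overlapped full-length ZNF384. The summed level with TCF3-ZNF384 was 0.553 of that with the empty vector, 0.689 of that with full-length ZNF384 and 0.659 of that with TAF15-ZNF384. With full-length ZNF384 it was 0.802, and with TAF15-ZNF384 0.839, of that with the empty vector. With 2 libraries a group the smallest 2-sided p of an exact permutation test is 0.333, so the sums are given without a test. In bulk RNA, fewer cells in S phase and less histone RNA per cell cannot be told apart.

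**Figure D1:**
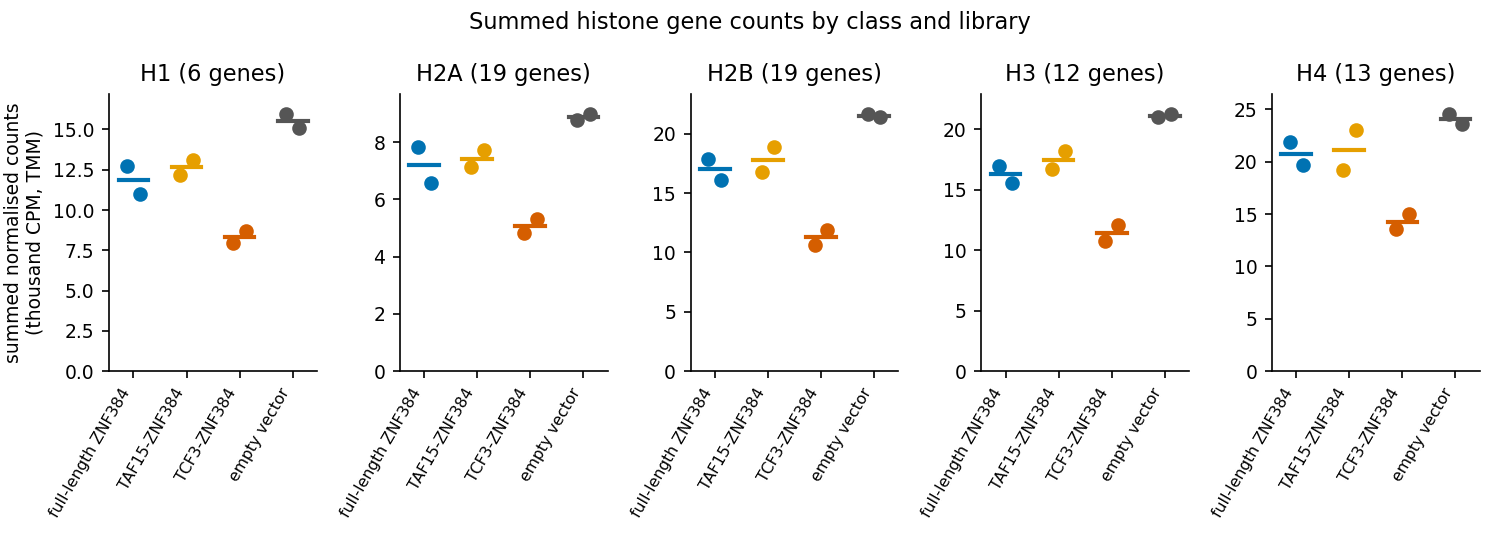
Summed normalised counts (in units of 1000 CPM, linear axis from 0) of the genes of each histone class in each of the 8 libraries. Points are libraries and horizontal lines the means of 2; in all 5 classes both TCF3-ZNF384 libraries lie lowest and both empty vector libraries highest.

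The 5 classes kept their proportions in every library. Of all histone counts, H1 took 15.9 to 17.4%, H2A 9.53 to 10.1%, H2B 22.3 to 23.7%, H3 22 to 23.5% and H4 26.2 to 28.5%. Per kilobase of coding sequence the summed H4 level was highest, at 46140 ± 3244 with TCF3-ZNF384 and 77955 ± 2122 with the empty vector (CPM per kb, SD, n = 2 each). On the same scale summed H2A was 13005 ± 883 with TCF3-ZNF384 and 22825 ± 344 with the empty vector. H2A genes are the least distinct of the 5 classes, with a median of 33% of their 50-base windows unique in the mm9 genome against 97.7% for H1. How reads that fit several copies were counted is not given in the sources used here, so levels compared between genes carry that limit.

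Gene by gene, 56 of 66 histone genes fell with TCF3-ZNF384 against the empty vector and 0 rose, by edgeR's quasi-likelihood test at a Benjamini-Hochberg adjusted p below 0.05. At an unadjusted p below 0.05 there were 56 and 1, and by DESeq2's adjusted p 56 and 1. Over all tested genes 17.0% fell and 16.2% rose. The median log2 fold change was −0.79 for histone genes and 0.01 for all tested genes. In all 56, both TCF3-ZNF384 libraries were lower than both empty vector libraries. How many of all tested genes did the same was not counted, so this adds no separate result. Every one of the 46 histone genes with a mean of at least 100 CPM fell, by 0.35 to 1.30 on the log2 scale, and of the 20 tested genes below that level 10 fell; this level was chosen after the values were seen. With any 1 library left out, 47 to 57 of the genes were past the threshold.

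**Figure D2:**
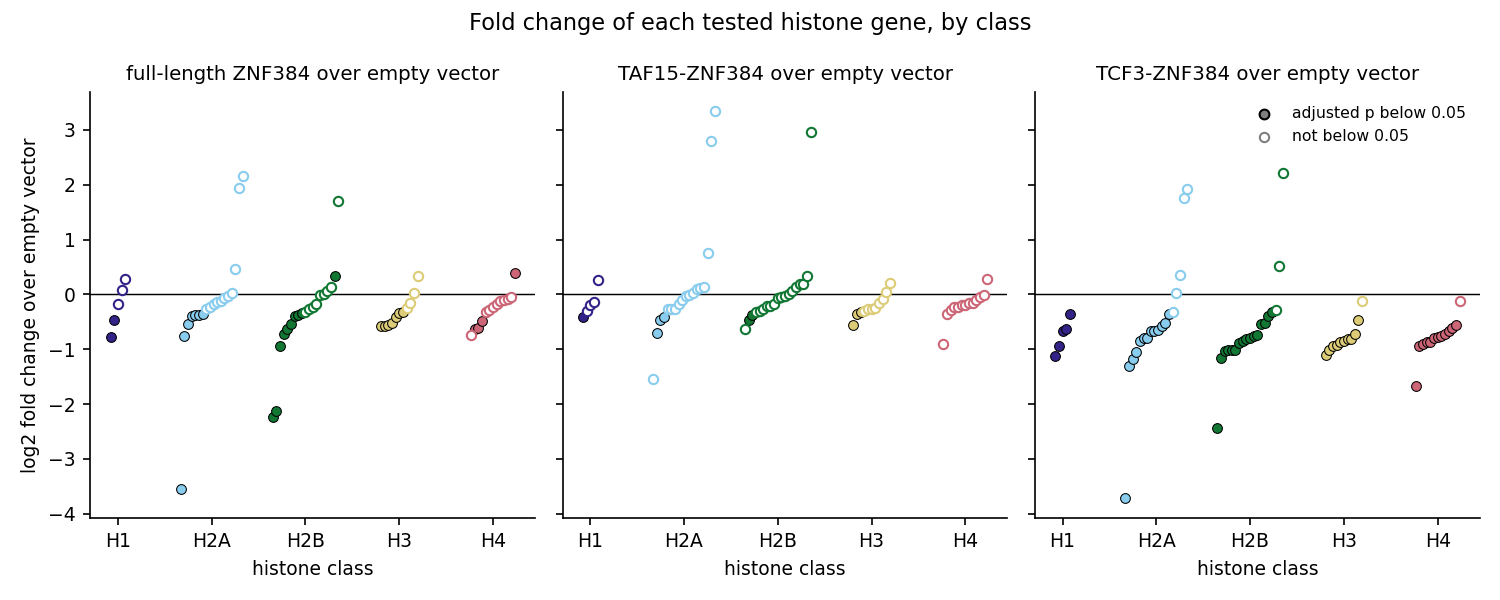
Log2 fold change of each of the 66 tested histone genes over the empty vector, by class, in 1 panel per construct. Each point is a gene and filled points have an adjusted p below 0.05; with TCF3-ZNF384 56 points are filled, all below 0, and the open points above 1 in each panel are the low-count copies Hist1h2ao, Hist1h2ap and Hist1h2br.

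Linker histones bind the DNA between nucleosomes and compact it. All 5 tested H1 genes fell with TCF3-ZNF384 against the empty vector (median −0.67), where 17.0% of all tested genes fell. Hist1h1d (chr13:23646901-23650721), the most abundant, had 2977 and 3283 CPM with TCF3-ZNF384, against 6162 and 5886 CPM with the empty vector, a log2 fold change of −0.94 ± 0.11 (adjusted p = 1.91e-05). Hist1h1a (chr13:23855537-23856283) changed most, with 2117 and 2331 CPM with TCF3-ZNF384, against 4939 and 4727 CPM with the empty vector (−1.12 ± 0.10, adjusted p = 1.17e-06). Hist1h1b and Hist1h1c fell less, by 0.67 and 0.62 on the log2 scale. Hist1h1e, the least abundant of the 5, had 50.4 and 49.0 CPM with TCF3-ZNF384, against 64.3 and 63.8 CPM with the empty vector (−0.37 ± 0.11, adjusted p = 0.0182). Its call ended without either TCF3-ZNF384 library or either empty vector library (adjusted p 0.0768 to 0.126), under total-count scaling without the 5 non-coding genes (0.154) and after a length and GC correction (0.0733). Hist1h1t, the testis linker histone, had 0 to 3 counts in every library.

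H2A and H2B form the dimers on the outer faces of the nucleosome core. With TCF3-ZNF384, 13 of 18 tested H2A genes (median −0.66) and 16 of 19 H2B genes (median −0.80) fell. Of all tested genes 17.0% fell. Hist1h2ae (chr13:23662386-23663089) had 435 and 474 CPM with TCF3-ZNF384, against 1040 and 1196 CPM with the empty vector (−1.30 ± 0.11, adjusted p = 1.3e-06). Its divergent neighbour Hist1h2bg (chr13:23663265-23663882) had 1321 and 1468 CPM with TCF3-ZNF384, against 3123 and 3111 CPM with the empty vector (−1.16 ± 0.10, adjusted p = 8.18e-07). Hist1h2bb, the most abundant H2B gene, had 1906 and 2184 CPM with TCF3-ZNF384, against 4277 and 4045 CPM with the empty vector (−1.02 ± 0.11, adjusted p = 8.72e-06). In these 3 genes the groups did not overlap. The 2 empty vector values were close in Hist1h2bg and Hist1h2bb and further apart in Hist1h2ae. Hist1h2ai, the most abundant H2A gene, fell by 0.79, and Hist1h2ac, Hist1h2bk, Hist1h2bh, Hist1h2bp and Hist1h2bm fell by 1.17, 1.02, 1.01, 0.89 and 0.74.

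H3 and H4 form the tetramer at the centre of the nucleosome. With TCF3-ZNF384, 10 of 11 tested H3 genes (median −0.84) and 12 of 13 H4 genes (median −0.78) fell. Of all tested genes 17.0% fell. Hist1h3d (chr13:23667632-23668880) had 677 and 759 CPM with TCF3-ZNF384, against 1592 and 1488 CPM with the empty vector (−1.10 ± 0.10, adjusted p = 2.09e-06). Hist1h3e, the most abundant H3 gene, had 1906 and 2213 CPM with TCF3-ZNF384, against 4126 and 4194 CPM with the empty vector (−1.01 ± 0.10, adjusted p = 4.6e-06). Hist1h3g, Hist1h3a and Hist2h3b fell by 0.81, 0.73 and 0.47, and the last lost its call without TCF3-ZNF384 replicate 1 (adjusted p = 0.0563). Among H4 genes, Hist1h4h (chr13:23622919-23623388) was the most abundant and had 2675 and 3057 CPM with TCF3-ZNF384, against 4478 and 4334 CPM with the empty vector (−0.62 ± 0.12, adjusted p = 0.00116). Hist1h4b (chr13:23848806-23849296) was the H4 gene that did not pass, with 27.6 and 27.4 CPM with TCF3-ZNF384, against 32.3 and 27.3 CPM with the empty vector (adjusted p = 0.486), and its groups overlapped.

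Histone genes were also lower with TCF3-ZNF384 than with each of the other constructs. Against TAF15-ZNF384, 50 of 66 histone genes fell with TCF3-ZNF384 and 0 rose (median −0.61), where 4.17% of all tested genes fell and 5.91% rose; the 0 was also 0 at an unadjusted p below 0.05 and by DESeq2. In all, 10.1% of tested genes were called in this comparison. The count of called genes was 14 without TAF15-ZNF384 replicate 2 and 23 without TCF3-ZNF384 replicate 1. Against full-length ZNF384, 48 fell with TCF3-ZNF384 and 1 rose (median −0.48), where 23.4% of all tested genes fell and 22.2% rose. Those 49 calls became 29 without TCF3-ZNF384 replicate 1, and the median became −0.31 under total-count scaling without the 5 non-coding genes, which moved the median of all tested genes to 0.18. Hist1h2bh, for example, had 635 and 733 CPM with TCF3-ZNF384, against 1466 and 1314 CPM with full-length ZNF384 (−1.02 ± 0.11, adjusted p = 6.34e-06).

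Fewer histone genes fell with full-length ZNF384. Against the empty vector 28 of 66 histone genes fell and 2 rose (median −0.27), where 9.87% of all tested genes fell and 10.8% rose (20.6% in all). The count of 30 called genes was 19 when replicate 1 of the empty vector was left out and 14 when replicate 2 was. By class 2 of 5 H1, 7 of 18 H2A, 9 of 19 H2B, 7 of 11 H3 and 3 of 13 H4 genes fell. Hist1h1a had 2908 and 2744 CPM with full-length ZNF384, against 4939 and 4727 CPM with the empty vector (−0.77 ± 0.10, adjusted p = 0.000115). Hist1h1b did not pass, with 3790 and 2940 CPM with full-length ZNF384, against 3414 and 2970 CPM with the empty vector (0.08 ± 0.12, adjusted p = 0.699), and its groups overlapped. The 2 genes that rose were Hist1h4b, with 37.5 and 40.9 CPM with full-length ZNF384, against 32.3 and 27.3 CPM with the empty vector (0.40 ± 0.11, adjusted p = 0.0215), and Hist1h2be, with 83.8 and 92.2 CPM, against 75.0 and 64.3 CPM with the empty vector (0.34 ± 0.10, adjusted p = 0.0333). Both calls ended without empty vector replicate 2 (adjusted p = 0.243 and 0.325), and that of Hist1h2be also without full-length ZNF384 replicate 2 or any of the TAF15-ZNF384 and TCF3-ZNF384 libraries (adjusted p 0.0593 to 0.0720). In a fit of these 2 groups only both calls ended (adjusted p = 0.078 and 0.134), as did that of Hist1h4b in DESeq2 (0.0502) and that of Hist1h2be under total-count scaling without the 5 non-coding genes (0.0506). Hist1h4b overlaps the annotated 4930558J22Rik and Hist1h2be the annotated Gm11398, and reads of overlapping genes may not be separable. The same limit holds for the tested genes Hist1h2ac (overlapping 5S_rRNA), Hist1h2bm (Hist1h2aj), Hist2h2ab (Gm15444) and Hist3h2a (Trim17).

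With TAF15-ZNF384 the fewest histone genes were called against the empty vector. Of 66, 9 fell and 0 rose (median −0.18), where 6.01% of all tested genes fell and 5.01% rose. At an unadjusted p below 0.05 there were 25 and 6, and by DESeq2 12 and 1. The 9 that fell were Hist1h1a, Hist1h2ab, Hist1h2ac, Hist1h2ae, Hist1h2bb, Hist1h2bg, Hist1h3d, Hist1h3e and Hist1h3i, all in Hist1. Hist1h2ae had 640 and 734 CPM with TAF15-ZNF384, against 1040 and 1196 CPM with the empty vector (−0.70 ± 0.11, adjusted p = 0.00133), and Hist1h3d 1081 and 1018 CPM, against 1592 and 1488 CPM with the empty vector (−0.55 ± 0.10, adjusted p = 0.0031). The call of Hist1h2ae ended without TAF15-ZNF384 replicate 1 (adjusted p = 0.0533), and that of Hist1h3d without TAF15-ZNF384 replicate 2 (0.0678) or empty vector replicate 1 (0.0520). The median was −0.28 to −0.10 with any 1 library left out. The count moved between these fits, and the share of all tested genes called in them is not given here. It was 1 without either TAF15-ZNF384 library or without empty vector replicate 1, 4 without empty vector replicate 2, and 29 and 28 without full-length ZNF384 replicates 1 and 2. It was also 29 in a fit of these 2 groups only and 17 with no filter on low counts, and the median was −0.07 under total-count scaling without the 5 non-coding genes, which moved the median of all tested genes to 0.12. Against full-length ZNF384, 16 histone genes rose with TAF15-ZNF384 and 1 fell (median 0.08), where 15.4% of all tested genes rose and 17.9% fell. Both directions together, the share of histone genes called (25.8%) was below that of all genes (33.3%), but 16 of the 17 calls were higher. The 17 calls became 9 without TAF15-ZNF384 replicate 1, 3 without replicate 2 and 28, all higher, under total-count scaling, with a median of 0.22.

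The comparisons with the empty vector share its 2 libraries, so the groups are best read side by side. Hist1h2bp had 110 and 117 CPM with full-length ZNF384, 159 and 182 CPM with TAF15-ZNF384, 89.3 and 101 CPM with TCF3-ZNF384, and 165 and 188 CPM with the empty vector. Hist2h3b had 341 and 338 CPM with full-length ZNF384, 476 and 530 CPM with TAF15-ZNF384, 330 and 372 CPM with TCF3-ZNF384, and 486 and 491 CPM with the empty vector. In both genes TAF15-ZNF384 lay near the empty vector and the other 2 constructs below it, and both rose in TAF15-ZNF384 against full-length ZNF384, by 0.59 ± 0.11 (adjusted p = 0.00115) and 0.57 ± 0.10 (adjusted p = 0.000689). After the length and GC correction the value of Hist2h3b was 0.20 and its call ended (adjusted p = 0.152). Hist1h2bm gave another order. It had 1857 and 1634 CPM with full-length ZNF384, 1504 and 1680 CPM with TAF15-ZNF384, 960 and 1041 CPM with TCF3-ZNF384, and 1716 and 1628 CPM with the empty vector, so both TCF3-ZNF384 libraries lay below the other 6.

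The 10 tested genes that did not pass with TCF3-ZNF384 against the empty vector were mostly of low level. Hist1h2ao, Hist1h2ap, Hist1h2br and Hist3h2ba had at most 2.72 CPM in any library. Hist2h2aa2 had 4.54 to 12 CPM, and Hist1h2bq, Hist1h4b, Hist2h3c2 and Hist3h2a had 5.62 to 47.6 CPM. Hist2h2ab was the most abundant of them, with 59.6 and 59.2 CPM with TCF3-ZNF384, against 75.7 and 72.8 CPM with the empty vector (−0.32 ± 0.16).

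Copies with the same sequence are uncertain. Hist1h2bq and Hist1h2br, Hist1h2ao and Hist1h2ap, and Hist2h2aa1 and Hist2h2aa2 had 0% unique windows. Hist1h2bq had 5.62 and 8 CPM with full-length ZNF384, 39.7 and 33.3 CPM with TAF15-ZNF384, 20.7 and 26.3 CPM with TCF3-ZNF384, and 18.1 and 39.9 CPM with the empty vector. It was the 1 histone gene that rose with TCF3-ZNF384 against full-length ZNF384, and its 2 empty vector values lay on either side of both TCF3-ZNF384 values. That call ended when any of the 4 libraries of these groups was left out (adjusted p 0.0518 to 0.196) and with no filter on low counts (0.0772). Among genes with at least 20% unique windows, a limit chosen after the values were seen, 50 of 55 fell with TCF3-ZNF384 against the empty vector.

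The genes were next taken by cluster. With TCF3-ZNF384 against the empty vector, 49 of 54 Hist1 genes, 5 of 8 Hist2 genes, 1 of 3 Hist3 genes and the single Hist4 gene fell. Over all tested genes 17.0% fell in that comparison. Hist4h4 had 522 and 617 CPM with TCF3-ZNF384, against 1038 and 1046 CPM with the empty vector. Hist2h4 had 562 and 694 CPM with TCF3-ZNF384, against 1213 and 1136 CPM with the empty vector. These 2 H4 genes lie on chromosomes 6 and 3, away from Hist1, and their log2 fold changes of −0.87 ± 0.11 and −0.90 ± 0.11 fall among those of the Hist1 genes. Hist3h2a did not pass, with 37.7 and 38.9 CPM with TCF3-ZNF384, against 36.0 and 39.8 CPM with the empty vector (0.02 ± 0.11, adjusted p = 0.915). With full-length ZNF384, 24 of 54 Hist1 and 2 of 8 Hist2 genes fell against the empty vector, where 9.87% of all tested genes fell.

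**Figure D3:**
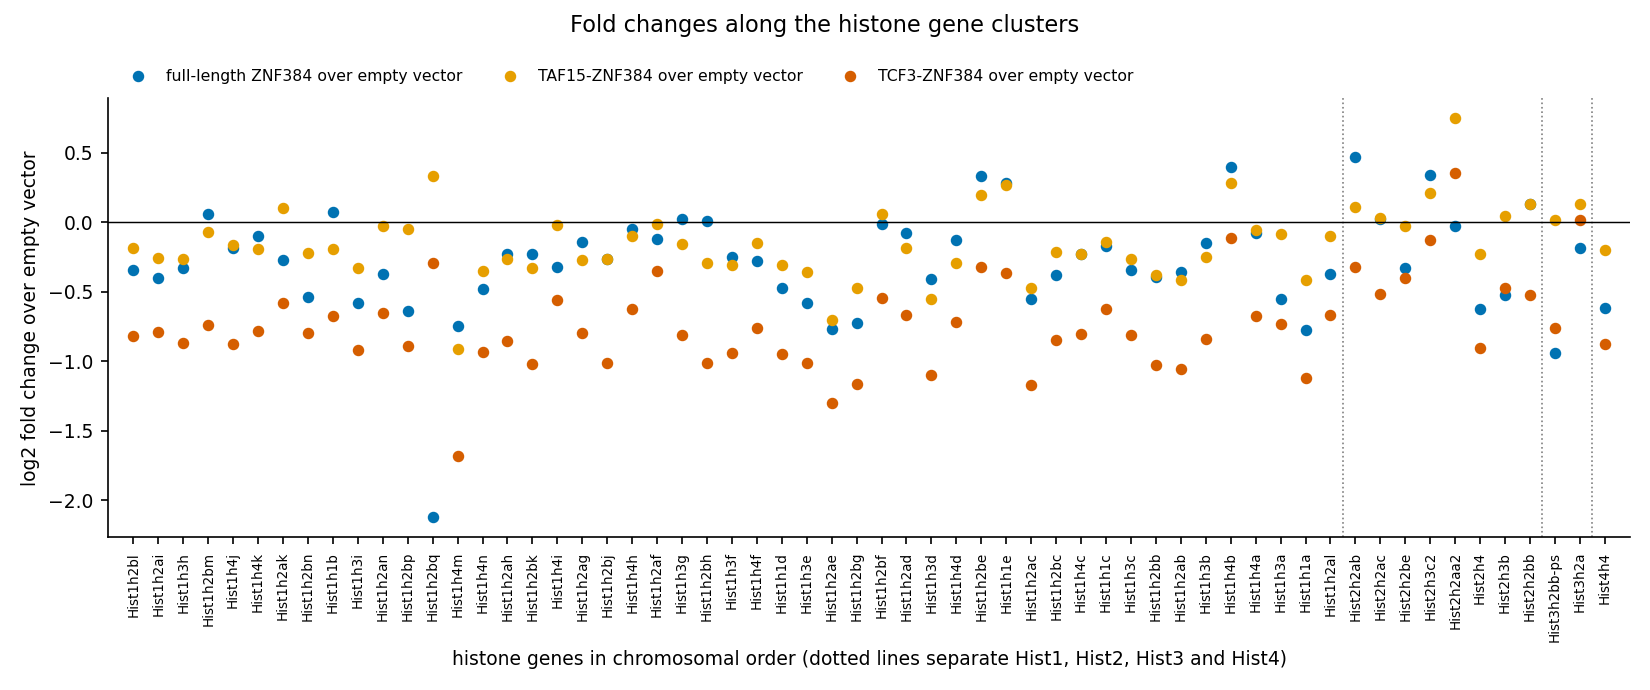
Log2 fold change over the empty vector of the 60 tested histone genes whose mean level reached 5 CPM, in chromosomal order within Hist1, Hist2, Hist3 and Hist4. Each point is a gene in 1 comparison; TCF3-ZNF384 points lie below the other colours along most of Hist1, and the lowest point is Hist1h2bq with full-length ZNF384 (−2.12), a copy with no unique sequence.

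Many H2A and H2B genes are transcribed away from each other from a shared stretch of DNA. There were 13 such pairs within 500 bases. With TCF3-ZNF384 against the empty vector both genes fell in 10 of the 13 pairs, with full-length ZNF384 in 5 and with TAF15-ZNF384 in 1. Taken singly, 17.0%, 9.87% and 6.01% of all tested genes fell in these comparisons, and pairs of other genes were not counted. With TCF3-ZNF384 Hist1h2ac and Hist1h2bc, 250 bases apart, changed by −1.17 and −0.85, and Hist1h2ad and Hist1h2bf, 184 bases apart, by −0.67 and −0.55. In the pair of Hist3h2a and Hist3h2bb-ps the first changed by 0.02 and the second by −0.76, though the second lost its call (adjusted p 0.0687 to 0.111) in 6 of the alternatives, which were leaving out either full-length ZNF384 library, TCF3-ZNF384 replicate 1 or empty vector replicate 2, total-count scaling without the 5 non-coding genes and a fit of these 2 groups only.

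The largest called fold changes over the empty vector belonged to a pair with few reads. Hist1h2aa (chr13:24026331-24026720) and Hist1h2ba (chr13:24025637-24026025) encode the testis variants TH2A and TH2B, lie 305 bases apart and are transcribed away from each other. Hist1h2aa had 8 and 5 counts in the full-length ZNF384 libraries, 8 and 7 in the TAF15-ZNF384 libraries, 3 and 2 in the TCF3-ZNF384 libraries, and 53 and 66 in the empty vector libraries. Hist1h2ba had 15 and 15 counts in the full-length ZNF384 libraries, 10 and 17 in the TAF15-ZNF384 libraries, 5 and 7 in the TCF3-ZNF384 libraries, and 47 and 66 in the empty vector libraries. Both genes were lowest with full-length ZNF384 and TCF3-ZNF384 once depth was allowed for, and the groups did not overlap with the empty vector. With TCF3-ZNF384 Hist1h2aa changed by −3.72 ± 0.61 (adjusted p = 0.000359) and Hist1h2ba by −2.44 ± 0.53 (adjusted p = 0.00298) against the empty vector. With full-length ZNF384 the log2 fold changes were −3.54 ± 0.52 (adjusted p = 0.000349) and −2.23 ± 0.46 (adjusted p = 0.004), and with TAF15-ZNF384 −1.55 ± 0.51 (adjusted p = 0.0653) and −0.64 ± 0.47 (adjusted p = 0.415). TAF15-ZNF384 against full-length ZNF384 gave 1.99 ± 0.62 (adjusted p = 0.0243) and 1.59 ± 0.52 (adjusted p = 0.031). The call of Hist1h2aa in that comparison ended without full-length ZNF384 replicate 1 (adjusted p = 0.105), TAF15-ZNF384 replicate 1 (0.126) or TAF15-ZNF384 replicate 2 (0.0699). The neighbouring genes Trim38, Slc17a1 to Slc17a4 and Scgn were not tested for want of counts.

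**Figure D4:**
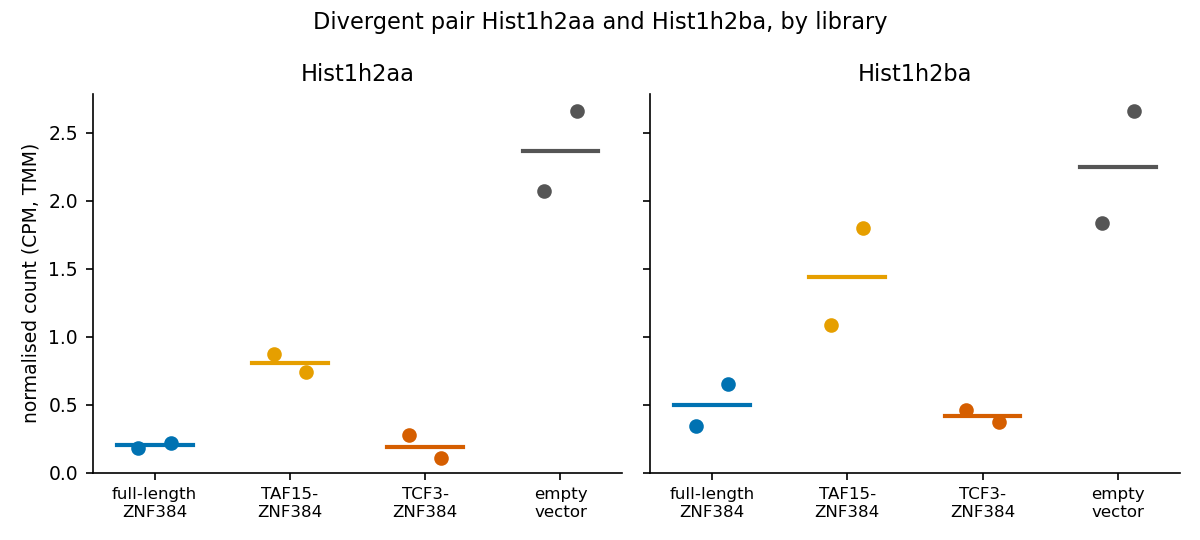
Normalised counts (CPM, linear axis from 0) of Hist1h2aa and Hist1h2ba in each library. Points are libraries and horizontal lines the means of 2; both empty vector libraries lie above all others in both genes, and full-length ZNF384 and TCF3-ZNF384 lie lowest.

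Most of the stretch between these 2 genes is shown, in the promoter window of Hist1h2aa, because it overlaps that of Hist1h2ba. The start of Hist1h2ba lies just outside the printed window. RefSeq promoter windows (GRCm38.p6, 250 bases before to 50 after the start) matched 61 of the 69 genes. Capitals mark TATAAA (the TATA box), the CCAAT box and the octamer bound by Oct factors, which reads ATTTGCAT, each searched on both strands. TATAAA was in 57.4% of the histone promoters against 14.2% of 27025 promoters, CCAAT in 85.2% against 37.9%, and the octamer in 21.3% against 1.75%. CCAAT was in every matched H1, H2A, H2B and H3 promoter and in 3 of 12 H4 promoters, and the octamer in 7 of 17 H2A and 6 of 16 H2B promoters and in none of the other classes. Only the first listed window of each gene was counted. Hist1h2be has another window, not counted, that holds the octamer. AAAAAA, searched as well since ZNF384 is known to bind A-rich DNA, was in 29.5% of the histone promoters against 19.2% and overlapped TATAAA in 1. The windows are chr13:23934187-23934486 for Hist1h2aa, chr13:23571150-23571449 for Hist1h2bg, which shares its upstream stretch with Hist1h2ae, and chr13:23530794-23531093 for Hist1h4h, all on the plus strand. The Hist1h2aa window holds both TATAAA orientations, the Hist1h2bg window all 3 motifs, and the Hist1h4h window none of these letters, which says nothing of what binds there.
Hist1h2aa: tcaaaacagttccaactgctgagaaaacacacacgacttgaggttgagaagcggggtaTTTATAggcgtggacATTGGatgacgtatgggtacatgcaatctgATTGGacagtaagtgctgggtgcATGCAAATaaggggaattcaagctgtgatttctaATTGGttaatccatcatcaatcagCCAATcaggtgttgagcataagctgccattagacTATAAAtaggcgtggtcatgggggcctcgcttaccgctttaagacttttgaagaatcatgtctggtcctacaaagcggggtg
Hist1h2bg: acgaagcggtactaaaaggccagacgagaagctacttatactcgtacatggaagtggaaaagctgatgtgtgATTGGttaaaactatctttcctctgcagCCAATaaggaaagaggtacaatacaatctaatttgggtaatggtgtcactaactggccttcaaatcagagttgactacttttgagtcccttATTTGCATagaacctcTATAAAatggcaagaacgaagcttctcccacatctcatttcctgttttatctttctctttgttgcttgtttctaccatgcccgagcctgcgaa
Hist1h4h: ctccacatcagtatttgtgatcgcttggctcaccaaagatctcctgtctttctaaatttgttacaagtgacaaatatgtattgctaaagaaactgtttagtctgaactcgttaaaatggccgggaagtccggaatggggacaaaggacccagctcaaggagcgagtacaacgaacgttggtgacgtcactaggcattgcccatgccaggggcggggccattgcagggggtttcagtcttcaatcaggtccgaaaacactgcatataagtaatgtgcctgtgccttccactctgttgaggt

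By these letters, the 13 tested genes with the octamer had a median log2 fold change of −1.02 with TCF3-ZNF384 against the empty vector and 12 fell, and the 45 without it −0.76, of which 37 fell. With AAAAAA the median was −0.67 and 14 of 18 fell, and without it −0.80 and 35 of 40 fell. Over all tested genes 17.0% fell in that comparison. Hist1h2be was counted by its first window, which lacks the octamer. These are descriptions of windows, with no test between them.

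Genes of the machinery that makes and processes these messages were called, both directions together, about as often with TCF3-ZNF384 as all genes were. Most of the called processing genes fell. Of 15 genes for histone 3′ end processing and decay, 5 fell and 1 rose with TCF3-ZNF384 against the empty vector, where 33.3% of all tested genes were called, 17.0% lower and 16.2% higher. The U7 particle subunits Lsm10 (8.47 and 7.54 CPM with TCF3-ZNF384, against 11.4 and 11.6 CPM with the empty vector) and Lsm11 fell by 0.54 and 0.40, as did Casp8ap2 (FLASH) by 0.44, the nuclease Cpsf3 by 0.49 and the exonuclease Eri1 by 0.42, while Cpsf2 rose by 0.65. Slbp had 36.3 and 44.4 CPM with TCF3-ZNF384, against 52.4 and 56.3 CPM with the empty vector (−0.42 ± 0.17, adjusted p = 0.0777). Against full-length ZNF384 Slbp fell by 0.51 with TCF3-ZNF384 (adjusted p = 0.0275). Slbp is counted in the S phase list as well. With full-length ZNF384 against the empty vector Ncbp2 and Lsm11 rose in the processing list, by 0.62 and 0.33, and with TAF15-ZNF384 Srrt rose by 0.31 and Cpsf3 fell by 0.42. Of 7 genes of histone transcription, 2 rose with TCF3-ZNF384 against the empty vector, beside the same 16.2% of all genes, Pou2f1 (Oct1) by 0.43 and Cdk2 by 0.34. Npat, the coactivator of histone genes, had 190 and 194 CPM with TCF3-ZNF384, against 198 and 191 CPM with the empty vector, and Hinfp, which acts on H4 genes, 30.5 and 27.9 CPM, against 26.9 and 27.0 CPM with the empty vector; neither passed (adjusted p = 0.881 and 0.487). E2f1 fell by 0.44 with full-length ZNF384 against the empty vector, and Cdk2 and Ccne2 (cyclin E2) rose by 0.41 and 0.50 with TAF15-ZNF384.

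Cell cycle genes were lower with TCF3-ZNF384 as well. With TCF3-ZNF384 against the empty vector, 17 of 30 S phase genes fell and 1 rose (median −0.40), and 16 of 20 G2 and M phase genes fell (median −0.46), where 17.0% of all tested genes fell and 16.2% rose. Mcm5, a subunit of the replicative helicase, fell by 0.77 and Mki67, a marker of cycling cells, by 0.45, while Tk1, which salvages thymidine, rose by 0.40. Against TAF15-ZNF384, 14 of 30 S phase genes and 3 of 20 G2 and M phase genes fell with TCF3-ZNF384, where 4.17% of all tested genes fell. With full-length ZNF384 against the empty vector, 1 S phase gene rose (Rrm2) and 1 fell (Pcna), and 6 G2 and M phase genes rose, among them Ube2c by 0.77, beside 28 histone genes that fell; of all tested genes 10.8% rose and 9.87% fell. With TAF15-ZNF384 against the empty vector, Tk1 rose among S phase genes, and among G2 and M phase genes Kif20a rose and Cenpe fell, where 5.01% of all tested genes rose and 6.01% fell. The part of the cell cycle genes in the histone result was not tested.

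Histone chaperones hand newly made histones to the replication fork. With TCF3-ZNF384 against the empty vector 7 of 19 tested chaperone and new-histone acetylation genes fell, among them the CAF-1 subunits Chaf1a (−0.48) and Chaf1b (−0.42), Asf1b (−0.51) and the acetyltransferase Hat1 (−0.37). Over all tested genes 33.3% were called in this comparison, 17.0% lower and 16.2% higher. Both directions together, the share of these genes called lay near that of all genes, but all 7 calls were lower and 0 higher. With full-length ZNF384 against the empty vector 4 rose, Chaf1b (0.56), Nasp (0.44), Hira (0.53) and Nap1l1 (0.42), and 2 fell. Of all tested genes 10.8% rose and 9.87% fell in that comparison. With TAF15-ZNF384 0 of 19 passed in edgeR, as at an unadjusted p below 0.05 and in DESeq2. By edgeR's adjusted p, 5.01% of all tested genes rose and 6.01% fell with TAF15-ZNF384 against the empty vector. Of 10 tested replication-independent histones, 3 fell and 2 rose with TCF3-ZNF384 against the empty vector, to be read against 17.0% and 16.2% of all tested genes. H2afz fell by 1.32, with 27.8 and 30.5 CPM with TCF3-ZNF384, against 79.2 and 66.9 CPM with the empty vector. H3f3a, a polyadenylated H3 gene, had 718 and 640 CPM with TCF3-ZNF384, against 640 and 726 CPM with the empty vector (adjusted p = 0.975), and its groups overlapped. With full-length ZNF384 H3f3b fell by 0.78, and H3f3a and H2afy rose by 0.49 and 0.54. With TAF15-ZNF384 H2afv rose by 0.49 and Cenpa, the centromeric H3, fell by 0.37.

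**Figure D5:**
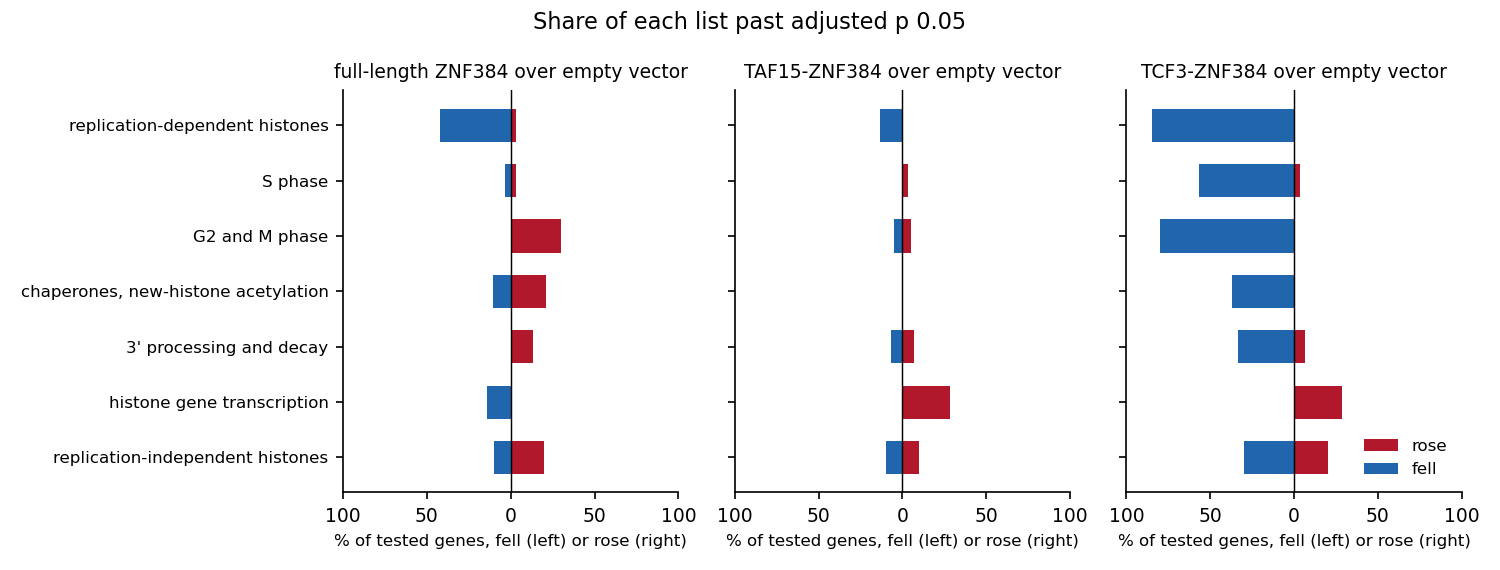
Share of the tested genes of each list that fell (left of 0) or rose (right of 0) at an adjusted p below 0.05, for each construct over the empty vector. With TCF3-ZNF384 56 of 66 replication-dependent histone genes, 17 of 30 S phase genes and 16 of 20 G2 and M phase genes fell.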

How the data were processed

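RNA was measured in 8 libraries, 2 in each of 4 groups, and the design text calls the replicates biological. The deposited values are raw counts per gene, made by the authors with HTSeq 0.6.1p1 on the mm9 build per the submitters' processing notes; the library kit is stranded per the labels' protocols, while the aligner, the strand setting of the counting and the treatment of reads that fit several copies are not given in the sources used here. Depth was 9381954 to 41483660 assigned counts a library, which limits genes of a few counts most.

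Counts were fitted with edgeR 4.0.16 in R 4.3.3 (filterByExpr by group, TMM, robust quasi-likelihood, 1 term per group, all 8 libraries, 4 residual degrees of freedom). The 6 pairwise comparisons were 2-sided, with Benjamini-Hochberg adjustment over 12970 genes and a threshold of 0.05; "rose" and "fell" mean past it. The members and gene lists were chosen with earlier results of these data known. The rule for named histone genes took up to 4 per direction with the smallest adjusted p in each comparison, the most abundant gene of each class and the H1 genes; for the other lists it took up to 3 per direction, with Slbp, Npat and Zfp384. Hist1h2ba, Hist1h2bc, Hist1h2ad, Hist1h2bf, Hist2h2ab, Hist2h4, Hist3h2a, Hist4h4, Hat1, Hinfp, Lsm10 and Nasp fall outside it and were chosen after their values were seen. Gene positions and stem-loops come from mm9 (NCBIM37, GENCODE vM1), where all 69 genes matched, and promoters from RefSeq. Counts for all 8 libraries were simulated from mean levels over the 8, with changes added to a part of the genes in the full-length ZNF384 libraries. For full-length ZNF384 against the empty vector, the procedure recovered 69.6% of genes changed by −1 and 30.8% of those changed by −0.5 on the log2 scale. Of its calls 13% were false. The other comparisons were not scored, so these rates are not known for them. Alternatives were DESeq2 1.42.0, its size factors, other filters, total-count scaling without 5 non-coding genes, a length and GC correction (89.5% of genes matched), 2-group fits, a replicate block and leaving out each library.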

Additional observations from a re-analysis of the deposited data

How the results depend on the processing

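In 17 alternatives the median of histone genes stayed below 0 in each comparison except that of TAF15-ZNF384 with full-length ZNF384. Under total-count scaling without 5 non-coding genes, which moved the median of all tested genes by up to 0.18, the histone medians were −0.65 for TCF3-ZNF384 and −0.072 for TAF15-ZNF384 against the empty vector, and −0.31 for TCF3-ZNF384 and 0.22 for TAF15-ZNF384 against full-length ZNF384, where 28 genes were called. Summed levels then gave log2 ratios of −0.72, −0.14, −0.37 and 0.20. TAF15-ZNF384 against the empty vector had 17 calls with no filter and 29 in a 2-group fit. After the length and GC correction the TCF3-ZNF384 medians were −0.62 against the empty vector and −0.47 against TAF15-ZNF384.

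Leaving out 1 library gave 14 to 39 calls and medians of −0.34 to −0.25 for full-length ZNF384 against the empty vector, 1 to 29 and −0.28 to −0.10 for TAF15-ZNF384, and 47 to 57 and −0.87 to −0.72 for TCF3-ZNF384. Against full-length ZNF384 the ranges were 3 to 23 and −0.02 to 0.19 for TAF15-ZNF384, and 29 to 51 and −0.58 to −0.39 for TCF3-ZNF384, and for TCF3-ZNF384 against TAF15-ZNF384 14 to 56 and −0.71 to −0.53. The causes were not tested. Where a group was left with 1 library, it was assumed to vary like the others.

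The differences between replicates 1 and 2 correlated between pairs of groups at 0.0136 to 0.225 over 12970 genes, so the numbers were not taken as pairs. With a replicate block the calls against the empty vector were 32 for full-length ZNF384, 13 for TAF15-ZNF384 and 57 for TCF3-ZNF384. Of the log2 fold changes of named genes under alternatives, 2336 kept direction and side of the threshold, 142 lost a call, 63 gained one and 0 reversed. Genes under a few CPM and copies without unique sequence limit what the counts can show.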
